A study of Homo sapiens with 8 samples.

Results

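Untreated SKOV3 and OVCAR5 cells, a pair of human ovarian carcinoma cell lines, were compared in the solvent DMSO, on the 4 control arrays of a study of lovastatin. SKOV3 had 2 arrays and OVCAR5 had 2 arrays, each from cells kept with DMSO for 48 h in RPMI-1640 medium with fetal calf serum. No strain, allele or further agent was named in the labels. The other 4 of the 8 arrays held the same lines after 48 h with 10 µM lovastatin, and they served here only as a repeat of the line comparison. Probes with 1 gene symbol entered the comparison if their detection p fell below 0.01 on 2 or more of the 4 DMSO arrays, which kept 13687 of the 47323 probes. These probes stood for 10432 of the 20046 genes with a named probe, and each gene was described by its brightest kept probe. The labels did not say whether the 2 arrays of a line came from separate cultures, so the p-values measure only the spread between these arrays.

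Carcinoma cell lines keep part of the expression programme of the epithelium they came from and lose other parts in culture. Epithelial cells hold together through cadherins, claudins and desmosomes and build their filaments from keratins, while mesenchymal cells use N-cadherin and vimentin and express transcription factors of the SNAI, TWIST and ZEB families. Carcinomas of the ovary and fallopian tube often express PAX8, WT1, mesothelin and the mucin MUC16. SKOV3 is widely used as a line with extra copies of ERBB2, the gene of the receptor HER2. A line is 1 clonal or near-clonal population, so a difference between a pair of lines is a difference between those lines and not between tumour types.

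Levels are log2 normalized intensities of 1 probe, and differences are log2 SKOV3 minus OVCAR5 with limma's standard error (SE, n = 2 arrays per line). Adjusted p-values come from limma with Benjamini-Hochberg correction across the 13687 probes, and a gene was called at an adjusted p under 0.05. Between 15370 and 16909 probes were detected per array, and the lowest level that counted as detected lay between 5.32 and 5.58. The arrays of a line correlated at r = 0.994 in SKOV3 and in OVCAR5, and arrays of different lines at 0.811 to 0.814, across genes, which are not independent replicates. Where a gene was undetected on both arrays of a line, the difference can also be put as a lower bound, printed for part of these genes. This bound sets the bright line's mean against, per array, the lowest detected level or the probe's own level, whichever was higher. RNA per array was equalised, so fewer cells with a transcript and less transcript per cell cannot be told apart.

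The lines differed at most of the genes measured. Of 10432 genes, 7079 were called (67.9%), 3648 of them higher in SKOV3 (35.0%) and 3431 lower (32.9%). At a difference of at least 2-fold, 1869 genes were higher in SKOV3 (17.9%) and 1504 were lower (14.4%), together 3373 genes (32.3%). Of the called genes 51.5% were higher in SKOV3; with the arrays scaled to a common median this share was 63.7%, and in the authors' deposited table, which was normalized within each line, it was 62.7%. The median difference over all genes was 0.01, and it moved to 0.22 with median scaling and to 0.21 in the authors' deposited table. Both arrays of a line lay beyond both of the other line for 8876 genes (85.1%). Over probes instead of genes, 9230 of 13687 were called (67.4%).

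A large share of the wide differences were genes that only one line showed at a detectable level. SKOV3 had 967 genes detected on both of its arrays and on no OVCAR5 array, of which 946 were called and 789 differed at least 2-fold. OVCAR5 had 457 such genes, of which 448 were called and 342 differed at least 2-fold. Their direction follows from how they were picked and is given as a description. Among the 8313 genes detected on all 4 arrays, 5332 were called, 2539 higher and 2793 lower in SKOV3, and the median difference was -0.04. At least 2-fold differences in this set were 979 higher and 1061 lower, a split without the surplus of higher genes seen over all genes.

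**Figure D1:**
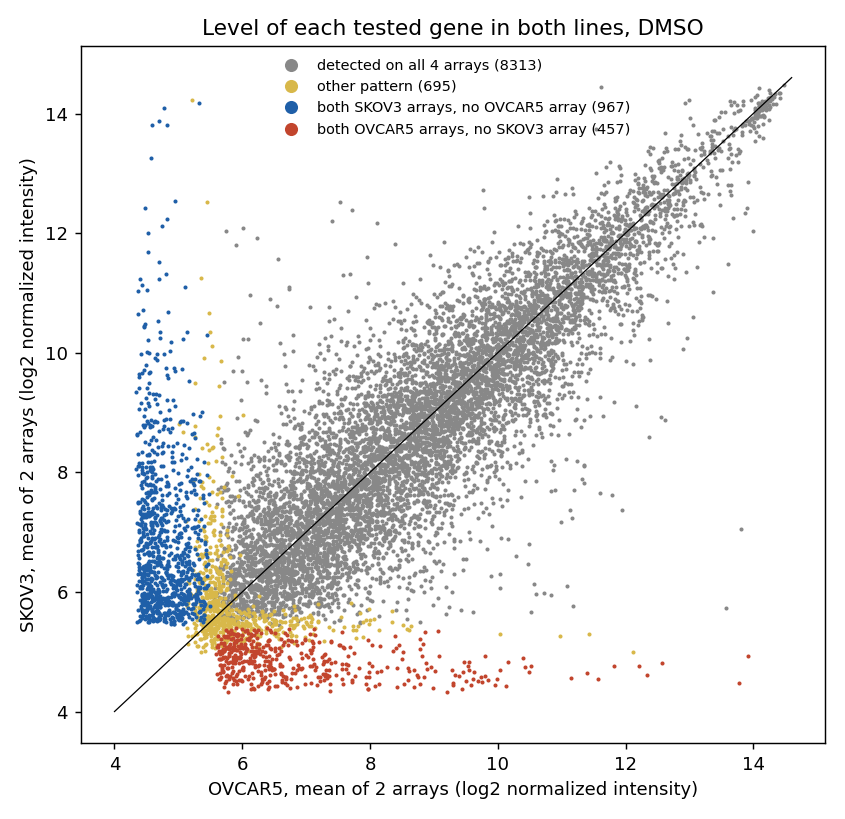
Mean level of each of the 10432 tested genes in OVCAR5 (horizontal) and SKOV3 (vertical), both as log2 normalized intensity over 2 DMSO arrays; each point is a gene, coloured by where it was detected, and the line marks equal levels. The 967 genes detected only on the SKOV3 arrays form the band at the left edge and the 457 detected only on the OVCAR5 arrays the band at the bottom.

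Among the genes furthest above OVCAR5 in SKOV3 were 5 SPANX genes of the X chromosome, cancer-testis genes whose normal product is a protein of the sperm nucleus. SPANXC had levels of 14.16 and 14.03 on the SKOV3 arrays and of 4.54 and 5.03 on the OVCAR5 arrays, where it was undetected. The difference was 9.32 ± 0.18 (adjusted p = 3.49e-06), at least 378-fold. SPANXD, SPANXA1, SPANXA2 and SPANXB1 differed by 9.23, 9.18, 9.003 and 8.86, and SPANXA2 was detected on 1 OVCAR5 array at a level of 5.66. These genes are near-identical copies, so a probe of one can bind the transcript of another and the gene behind each value is uncertain. Their tested neighbours on the X chromosome were higher in SKOV3 too: LDOC1, a leucine zipper gene, by 5.998, and MAGEC2, another cancer-testis gene, by 6.28. On the other side of SPANXB1 the next tested gene, GPR101, differed by -0.55 and was not called.

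The stretch before the transcription start shows how alike the copies are. The 250 bases upstream of the start of SPANXC (chrX:141242518-141242767, minus strand) and SPANXA1 (chrX:141584739-141584988, minus strand) are shown, from RefSeq in build GRCh38.p14, 5′ to 3′, with the dinucleotide CG in capitals.
SPANXC: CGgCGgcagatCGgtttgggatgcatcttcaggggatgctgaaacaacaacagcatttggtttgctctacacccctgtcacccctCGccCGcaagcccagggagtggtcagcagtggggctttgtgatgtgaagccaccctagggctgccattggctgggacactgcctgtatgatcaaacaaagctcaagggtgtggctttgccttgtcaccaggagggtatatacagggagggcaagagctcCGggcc
SPANXA1: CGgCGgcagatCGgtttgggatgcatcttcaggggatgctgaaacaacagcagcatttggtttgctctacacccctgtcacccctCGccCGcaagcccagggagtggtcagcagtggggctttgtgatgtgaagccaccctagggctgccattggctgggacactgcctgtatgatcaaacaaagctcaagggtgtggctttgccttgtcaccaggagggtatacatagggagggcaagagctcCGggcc
The windows were 98.8% identical, and each held 6 CG, below the median of 11 (quartiles 3 and 23) over the 35116 windows of this length in the table. Neither held the letters CACCTG, the E-box form bound by SNAI and ZEB repressors, nor TTTATG or TTTATT, forms of the site of the intestinal factor CDX, on either strand; 17.49%, 9.64% and 16.04% of all windows held these.

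The other genes with the highest differences covered surface proteins, secreted proteins and enzymes. DHRS2, a mitochondrial short-chain dehydrogenase, had levels of 13.86 and 13.77 in SKOV3 and of 4.74 and 4.89 in OVCAR5 (difference 8.998 ± 0.11, adjusted p = 2.58e-06, at least 311-fold). CD24, a small sialylated surface protein common on carcinoma cells, had levels of 13.28 and 13.23 in SKOV3 and of 4.60 and 4.55 in OVCAR5, a difference of 8.67 ± 0.10. A second probe of CD24 gave 4.97 in the same direction. CDH2, which encodes N-cadherin, had levels of 12.51 and 12.34 in SKOV3 and of 4.52 and 4.45 in OVCAR5 (difference 7.94 ± 0.11, at least 119-fold). CD70, the ligand of the lymphocyte receptor CD27, differed by 7.58 ± 0.17, and its neighbour TNFSF9, another ligand of the tumour necrosis factor family, by 3.85. All of these except TNFSF9 were undetected on both OVCAR5 arrays.

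Secreted and metabolic genes completed this end of the range. IGFBP3, which binds insulin-like growth factors, differed by 7.48 ± 0.14. NNMT, the enzyme that methylates nicotinamide, differed by 7.43 ± 0.14. LDHB, the heart-type subunit of lactate dehydrogenase, had levels of 12.25 and 11.99 in SKOV3 and of 4.72 and 4.78 in OVCAR5, undetected on both OVCAR5 arrays (difference 7.37 ± 0.13, at least 95.9-fold). COX7B2, a cytochrome c oxidase subunit 7B form known from testis, differed by 7.15 ± 0.13, SPINT2, an inhibitor of surface serine proteases, by 7.07 ± 0.11, and EVL, a protein of actin filament growth, by 6.83 ± 0.11. Groups of 2 arrays did not overlap for any of the 15 genes with the highest differences, a condition of their choice.

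At the other end stood UQCRH, a subunit of respiratory complex III. Its levels were 4.54 and 4.43 on the SKOV3 arrays, undetected on both, and 13.79 and 13.76 on the OVCAR5 arrays. The difference was -9.29 ± 0.10 (adjusted p = 2.58e-06), at least 325-fold. UQCRHL, a near copy of UQCRH, was detected on all 4 arrays and differed by -7.84 ± 0.16, and the signal of these probes may come from either gene; a second UQCRH probe gave -6.005. The gene before UQCRH on chromosome 1, LRRC41, a subunit of a ubiquitin ligase, had levels of 4.89 and 4.98 in SKOV3 and of 9.19 and 8.97 in OVCAR5, a difference of -4.14. The gene after it, NSUN4, an RNA methyltransferase of mitochondria, was higher in SKOV3 by 0.92.

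CLDN11, the claudin of myelin and of Sertoli cell tight junctions, had levels of 4.77 and 5.07 in SKOV3 and of 13.92 and 13.90 in OVCAR5 (difference -8.99 ± 0.13, adjusted p = 2.72e-06, at least 357-fold). RAC2, a small GTPase known mainly from blood cells, had levels of 4.85 and 4.76 in SKOV3 and of 12.57 on each OVCAR5 array (difference -7.77 ± 0.10). IGFBP4, a binding protein of insulin-like growth factors, differed by -7.72 ± 0.18, and CALB2, the calcium-binding protein calretinin used as a mesothelial marker, by -7.46 ± 0.10. The second probe of CALB2 gave -1.91. IL1A, the cytokine interleukin 1 alpha, had levels of 5.43 and 4.57 in SKOV3 and of 12.17 and 12.06 in OVCAR5, with detection on 1 SKOV3 array (difference -7.12 ± 0.28, adjusted p = 1.88e-05). KISS1, the gene of the peptide kisspeptin, had levels of 4.74 and 4.78 in SKOV3 and of 11.87 and 11.78 in OVCAR5, a difference of -7.06 ± 0.10. These 6 genes were at or near the detection limit in SKOV3 and far above it in OVCAR5.

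The remaining genes of the lowest 15 differed by -5.76 to -7.02. CHCHD10, a protein of the mitochondrial intermembrane space, differed by -7.02, and NME4, a mitochondrial nucleoside diphosphate kinase, by -6.76. MT1E, a metallothionein, was detected on all 4 arrays, with levels of 7.18 and 6.92 in SKOV3 and of 13.81 and 13.80 in OVCAR5 (difference -6.76 ± 0.13); a second probe gave -1.09, and metallothionein genes are close copies. FERMT3, the integrin activator kindlin-3 of blood cells, differed by -6.59, FJX1, a secreted relative of the fly gene four-jointed, by -6.13, PLBD1, a phospholipase B-like protein, by -5.83, and LTB, the membrane ligand lymphotoxin beta, by -5.76.

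The upstream windows of genes with detection in only one line are shown as examples of the sequence that stands before them: CDH2 (chr18:28177131-28177380, minus strand, the first of 2 listed starts), LDHB (chr12:21657843-21658092, minus strand), UQCRH (chr1:46303448-46303697, plus strand) and CLDN11 (chr3:170418618-170418867, plus strand, the first of 2 listed starts). They are 250 bases from RefSeq in build GRCh38.p14, 5′ to 3′, with CG in capitals.
CDH2: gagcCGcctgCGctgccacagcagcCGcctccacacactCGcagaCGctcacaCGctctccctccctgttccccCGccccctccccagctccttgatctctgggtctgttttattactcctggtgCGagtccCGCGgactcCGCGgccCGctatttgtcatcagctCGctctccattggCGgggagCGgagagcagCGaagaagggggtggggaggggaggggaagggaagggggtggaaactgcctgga
LDHB: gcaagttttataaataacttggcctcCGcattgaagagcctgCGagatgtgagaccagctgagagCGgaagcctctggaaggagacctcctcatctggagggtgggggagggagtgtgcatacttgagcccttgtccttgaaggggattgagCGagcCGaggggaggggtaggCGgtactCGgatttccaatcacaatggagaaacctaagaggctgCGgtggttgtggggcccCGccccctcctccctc
UQCRH: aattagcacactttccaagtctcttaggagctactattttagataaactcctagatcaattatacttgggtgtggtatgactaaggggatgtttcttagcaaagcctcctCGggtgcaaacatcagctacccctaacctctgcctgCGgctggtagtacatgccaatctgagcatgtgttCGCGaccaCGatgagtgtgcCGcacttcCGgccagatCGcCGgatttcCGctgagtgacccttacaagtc
CLDN11: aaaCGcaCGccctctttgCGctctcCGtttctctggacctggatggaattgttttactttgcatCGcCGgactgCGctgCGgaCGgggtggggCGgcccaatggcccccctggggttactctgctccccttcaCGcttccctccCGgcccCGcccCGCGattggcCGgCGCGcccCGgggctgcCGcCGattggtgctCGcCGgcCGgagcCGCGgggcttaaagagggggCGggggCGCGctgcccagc
The CLDN11 window held 29 CG and the CDH2 window 17, both above the median of 11, while the UQCRH window held 10 and the LDHB window 9. TTTATT occurred in the CDH2 window only, and CACCTG and TTTATG occurred in none of the 4. A match of letters is a description of the window, and no reading of methylation or binding was made in these samples.

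**Figure D2:**
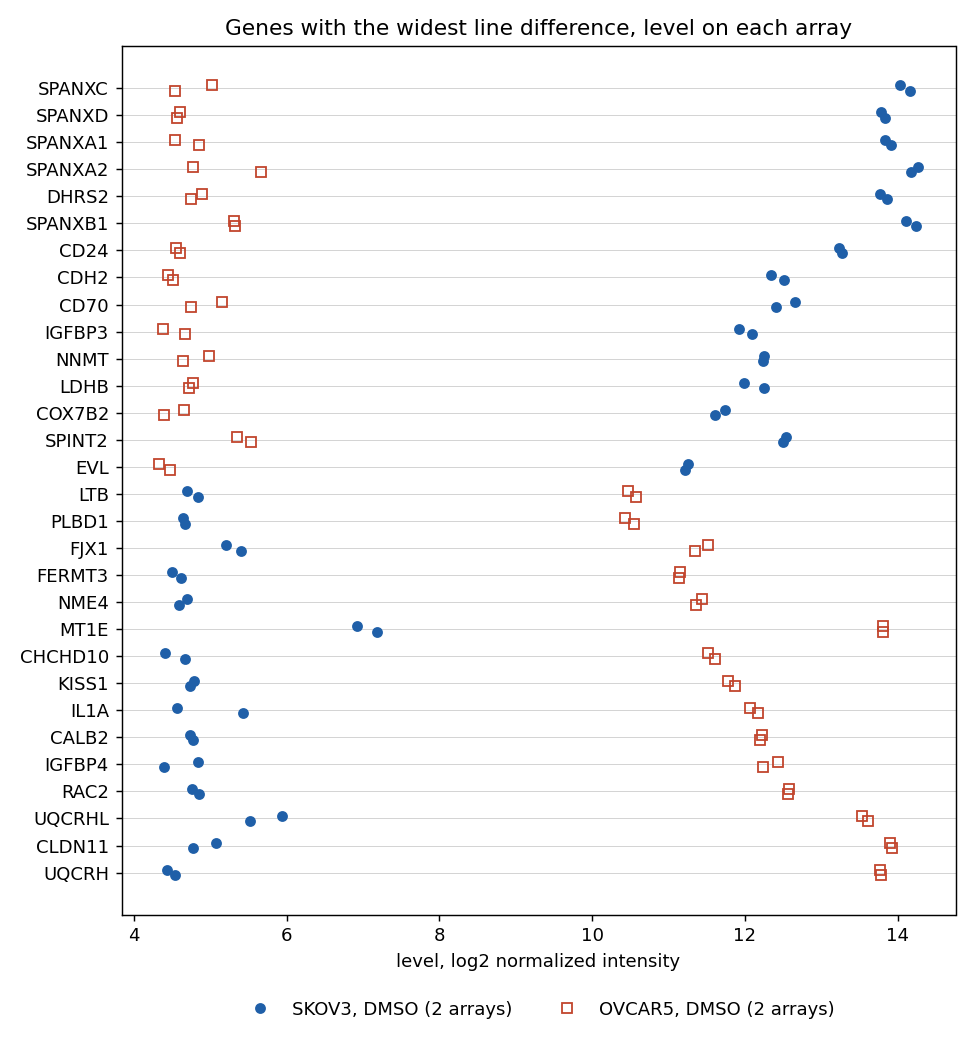
Level (log2 normalized intensity) on each DMSO array for the 15 highest and 15 lowest genes by line difference; filled points are the 2 SKOV3 arrays and open squares the 2 OVCAR5 arrays. Points of a line lie close together, and the lines are separated by 5.76 to 9.32 log2 units.

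The labels were checked first against ERBB2. ERBB2 had levels of 12.43 and 12.35 on the SKOV3 arrays and of 7.73 and 7.71 on the OVCAR5 arrays, and the difference was 4.68 ± 0.10 (adjusted p = 3.56e-06). PPP1R1B, a phosphatase inhibitor gene a short way before ERBB2 on chromosome 17, had levels of 11.10 and 11.38 in SKOV3 and was undetected in OVCAR5 at 4.69 and 4.72, a difference of 6.54 ± 0.13. PGAP3, which remodels lipid anchors, differed by 2.89 ± 0.14, STARD3, a sterol transporter of late endosomes, by 1.61 ± 0.14, MIEN1 by 1.04 ± 0.19, and GRB7, an adaptor of HER2, by 1.96 ± 0.25. GRB7 levels were 6.66 and 7.09 in SKOV3 and 5.23 and 4.60 in OVCAR5, undetected there. Each of these genes was higher on both SKOV3 arrays than on both OVCAR5 arrays. Arrays of the lines did not overlap, in either direction, for 85.1% of all tested genes.

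Of 25 genes listed along this stretch, 19 were tested, 13 were higher in SKOV3 and 4 were lower (13 and 2 with median scaling), with a median difference of 0.90 against 0.01 over all genes. The shares over all genes were 35.0% higher and 32.9% lower. The lower ones, named after their values were seen, were CDK12 at -0.98 and MED1 at -0.36 on one side and MED24 at -0.44 and RARA at -1.26 on the other. The gasdermin gene GSDMB was higher by 2.03, while GSDMA and CASC3, at -0.55 and -0.23, were not called. Every tested gene from PPP1R1B to ORMDL3 was called higher, though IKZF3 and ORMDL3 differed by only 0.67 and 0.90. The ends of this stretch were chosen after the values were seen, so the unbroken run is a description only. Outside this stretch FBXL20, PSMD3, THRA and MSL1, named after their values were seen, were higher too, at 0.94, 0.59, 1.61 and 0.33. Copy number was not measured here.

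**Figure D3:**
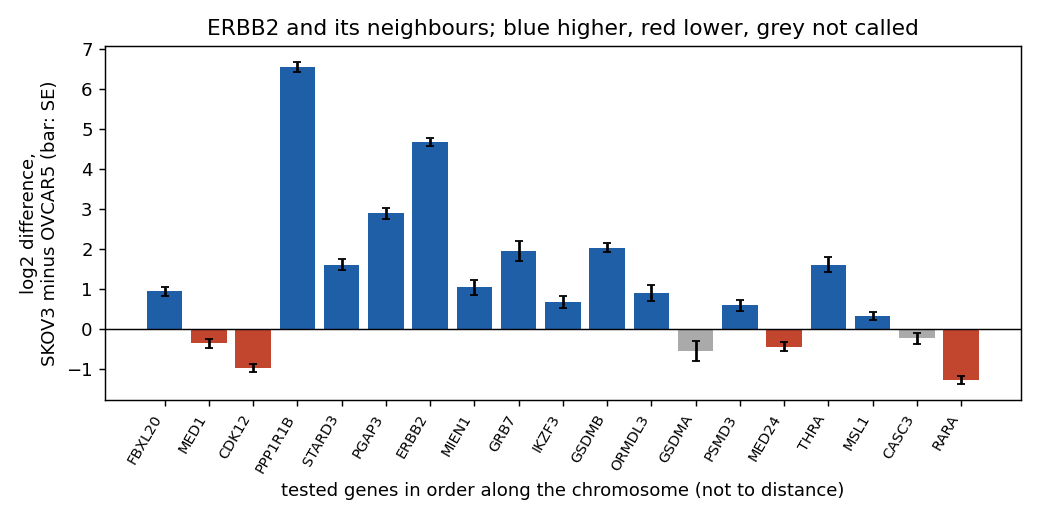
Difference between the lines (log2 SKOV3 minus OVCAR5, bars, with the SE as whisker, n = 2 arrays per line) for the 19 tested genes around ERBB2, in chromosomal order and not to distance; blue is higher in SKOV3, red lower and grey not called. PPP1R1B at 6.54 and ERBB2 at 4.68 are the tallest bars.

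Other markers also separated the lines. MTAP, the salvage enzyme methylthioadenosine phosphorylase, whose gene lies beside CDKN2A, had levels of 7.95 and 7.99 in SKOV3 and of 4.50 and 4.77 in OVCAR5, undetected there (difference 3.34 ± 0.13, at least 5.42-fold). CDKN2A itself was not detected on enough arrays in either line to be tested. SMARCC1, a core subunit of the SWI/SNF chromatin remodelling complex, had levels of 6.06 and 5.87 in SKOV3 and of 10.59 and 10.62 in OVCAR5 (difference -4.64 ± 0.11, adjusted p = 5.00e-06).

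Markers of ovarian carcinoma were found mainly in SKOV3. Of 25 listed Muellerian and ovarian carcinoma markers with a probe, 12 were tested, and all 12 were detected on both SKOV3 arrays against 6 on both OVCAR5 arrays. Of these, 9 were higher in SKOV3 and 1 lower, with a median difference of 2.68, against 35.0% higher and 32.9% lower over all genes. Among the 12, 6 were detected on both arrays in SKOV3 only, which largely sets their direction. PAX8, the transcription factor that marks Muellerian epithelium, had levels of 9.49 and 9.54 in SKOV3 and of 5.65 and 5.79 in OVCAR5, where it was just above the detection limit (difference 3.80 ± 0.11, adjusted p = 7.06e-06). FOLR1, the folate receptor, differed by 4.75, SOX17, a transcription factor of the tube and endometrium, by 4.29, and mesothelin, MSLN, by 2.72, and all were undetected on both OVCAR5 arrays. CRABP2, a retinoic acid carrier named after its value was seen, was the 1 lower gene, at -3.56. WT1, MUC16, WFDC2, ESR1 and PGR were detected on too few arrays of either line to be tested.

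Several epithelial markers were not detected on the OVCAR5 arrays, and part of these were not detected in SKOV3 either. CDH1, the gene of E-cadherin, was not detected on enough arrays in either line to be tested. KRT19, a keratin of simple epithelium, had levels of 11.20 and 11.07 in SKOV3 and of 4.45 and 4.40 in OVCAR5, undetected there. EPCAM, an epithelial surface protein, was present in both lines, with levels of 9.61 and 9.504 in SKOV3 and of 9.64 and 9.70 in OVCAR5, and its difference of -0.11 ± 0.11 was not called (adjusted p = 0.396). The 3 kept probes of EPCAM ranged from -0.70 to 0.03. Of 46 gastrointestinal epithelium markers with a probe, 43 were detected on too few arrays to be tested, among them CDX2, CDH17, LGALS4 and VIL1. The 3 tested ones were FOXA2, a transcription factor of endoderm, at -0.74, CEACAM1, an adhesion protein, at -1.29, and TM4SF4, a tetraspanin-like protein, at 1.47. CEACAM1 was undetected in SKOV3 and TM4SF4 in OVCAR5, with lower bounds of only 1.21-fold and 1.26-fold. The keratins KRT8 and KRT18 were detected on all 4 arrays, in OVCAR5 at 10.98 and 11.12 and at 8.15 and 7.97. CDH1 and the 43 untested gastrointestinal markers were detected on too few SKOV3 arrays as well, so they do not set OVCAR5 apart. This mixed marker pattern does not settle the identity of the cells labelled OVCAR5. Identity was not tested, so each difference is one between arrays with these labels.

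Markers of other cell types were few. Their counts are to be read beside the 35.0% higher and 32.9% lower over all genes. Of 14 leukocyte markers 5 were tested, 0 were higher and 3 lower in SKOV3 (CD14 at -1.29, CD68 at -0.48 and ITGB2 at -0.47), and PTPRC, the marker of all leukocytes, was undetected in both lines. CD68 was not called with median scaling, nor without SKOV3 replicate 2 or OVCAR5 replicate 2 (-0.36, -0.37 and -0.43), nor ITGB2 with median scaling (-0.185), which left 1 leukocyte marker lower. Of 12 fibroblast markers COL1A1 at 0.87 and LUM at 1.0025 were tested, both undetected in OVCAR5, while COL1A2 was undetected in both lines and DCN was detected on 1 OVCAR5 array. The lower bounds of COL1A1 and LUM were only 1.187-fold and 1.006-fold, and that of CD14, undetected in SKOV3, was 1.393-fold. COL1A1 was not called without either SKOV3 array, with adjusted p-values of 0.0854 and 0.0535. Of 10 endothelial markers 4 were tested and 3 were lower in SKOV3: ENG, the co-receptor endoglin, at -5.33, TIE1, an orphan receptor kinase, at -3.17 and ESAM, an adhesion molecule, at -1.25; with median scaling 1 was higher. PECAM1, CDH5 and VWF, which define endothelial cells, were undetected in both lines. The part of these markers in the other differences was not tested. The summed linear intensity of the endothelial list was 268 to 282 on the SKOV3 arrays and 1365 to 1432 on the OVCAR5 arrays. That of the leukocyte list was 1466 to 1587 in SKOV3 and 2015 to 2087 in OVCAR5, and that of the fibroblast list 388 to 404 and 329 to 331. Undetected probes enter these sums at background level. Neither line had both arrays detected for 10 of the 12 fibroblast, 6 of the 10 endothelial and 10 of the 14 leukocyte markers.

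Over all genes 35.0% were higher in SKOV3 and 32.9% lower, and the counts of these and all later lists are to be read beside these shares. In every list, members detected in only one line entered through that line, which largely sets their direction. Of 10 tested epithelial adhesion and identity genes, 6 were higher and 1 lower in SKOV3 (median 0.56); OVOL2, a repressor of mesenchymal genes, differed by 3.94 and JUP, plakoglobin, by 2.68, and the lower gene, AP1M2, was named after its value of -0.57 was seen; with median scaling 6 were higher and 0 lower. Of 6 tested keratins 5 were higher, KRT19 by 6.71, KRT80 by 2.96, KRT10 by 1.19 and KRT7 by 0.74. KRT7 was undetected in OVCAR5, with a lower bound of only 1.09-fold. Of 8 tested desmosome genes 5 were higher, including DSP, desmoplakin, by 3.23, the desmosomal cadherins DSC2 by 2.62 and DSG2 by 1.94, and the plakophilin PKP3 by 1.97, and 2 were lower, PKP4 and PKP2 at -1.29 and -1.27. A second probe of DSP gave 0.72. Of 9 tested tight junction genes 4 were higher and 4 lower (5 and 3 with median scaling), with CLDN1 at 1.79 and CLDN23 at 1.20 against CLDN11 at -8.99 and CLDN10 at -1.83.

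Of 13 tested mesenchymal genes 10 were higher in SKOV3 and 3 lower, with a median of 2.29. Among the 13, 4 were detected on both arrays in SKOV3 only, which largely sets their direction. TWIST1, a mesenchymal transcription factor, had levels of 7.99 and 8.15 in SKOV3 and of 4.58 and 4.60 in OVCAR5, undetected there (difference 3.48 ± 0.11). SNAI2, another such factor, differed by 2.86 and S100A4, a calcium-binding protein of motile cells, by 2.82. Vimentin, VIM, was high in both lines, with levels of 14.11 and 14.18 in SKOV3 and of 13.76 and 13.73 in OVCAR5, a difference of 0.40 ± 0.10 that was not called with median scaling (0.27) nor without SKOV3 replicate 2 (0.36), OVCAR5 replicate 1 (0.41) or OVCAR5 replicate 2 (0.39). The lower genes, named after their values were seen, were TNC and EMP3 at -1.47 each and SPARC at -1.16. ZEB1 was detected on too few arrays of either line to be tested.

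Patterning and signalling genes followed. Of 15 tested HOX genes, which set position along the body axis, 10 were higher in SKOV3 and 4 lower (median 1.80). Both arrays detected 5 of the 15 in SKOV3 only and 2 in OVCAR5 only, which largely sets their direction. HOXB8 had levels of 11.01 and 10.94 in SKOV3 and of 5.91 and 6.33 in OVCAR5, a difference of 4.85 ± 0.16, and HOXB7, HOXB2 and HOXB4 differed by 2.46, 2.38 and 2.06. HOXB4 was not called without either SKOV3 array (adjusted p = 0.0532 and 0.0651). HOXB3, in the same cluster, ran the other way at -1.36, and the further lower genes were HOXA2, HOXC6 and HOXC13 at -1.39, -1.01 and -0.77; these 4 were named after their values were seen.

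Of 17 tested WNT pathway genes 11 were higher in SKOV3 and 3 lower. Among the 17, 6 were detected on both arrays in SKOV3 only and 1 in OVCAR5 only, which largely sets their direction. The ligands WNT7A and WNT7B differed by 4.59 and 2.54, SFRP1, a secreted WNT antagonist, by 4.47 and AXIN2, a feedback target of the pathway, by 2.36, and OVCAR5 showed none of these at a detectable level. The lower genes, named after their values were seen, were the co-receptor LRP5 at -2.25, the transcription factor LEF1 at -1.27 and the receptor FZD1 at -0.96. Of 10 tested Notch pathway genes 6 were higher and 3 lower: the ligand DLL3 differed by 4.75, the target HEY1 by 2.79, the ligand JAG2 by 2.64 and the target HES4 by 1.67, against RBPJ, NOTCH2 and HES1 at -1.33, -1.23 and -1.18, named after their values were seen. Both arrays detected 4 of the 10 Notch genes in SKOV3 only, which largely sets their direction.

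Of 18 tested TGF-beta and BMP pathway genes 10 were higher in SKOV3 and 7 lower. ID2, a BMP target, had levels of 9.07 and 8.49 in SKOV3 and of 4.79 and 4.77 in OVCAR5, a difference of 4.002 ± 0.20, and the inhibitory SMAD6 and SMAD7 differed by 3.64 and 3.24. FST, the activin antagonist follistatin, was lower by -3.48, as were the BMP antagonist NOG, noggin, at -2.58 and the ligand TGFB2 at -2.45; NOG was named after its value was seen. Of 20 tested YAP and TAZ genes 6 were higher and 9 lower (6 and 7 with median scaling), with FJX1 at -6.13, the ectonucleotidase NT5E at -3.26 and the kinase NUAK2 at -2.70.

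Of 17 tested receptor tyrosine kinases 6 were higher in SKOV3, a share near the 35.0% over all genes, and 8 were lower, and with median scaling these counts were 6 and 6. PTK7, a pseudokinase of WNT signalling, differed by 4.59 and KIT, the stem cell factor receptor, by 4.22, both undetected in OVCAR5. MERTK, a receptor for apoptotic cells, was lower by -3.01. EGFR had levels of 8.29 and 8.06 in SKOV3 and of 10.09 and 10.19 in OVCAR5, a difference of -1.97 ± 0.12 (adjusted p = 8.03e-05). All 3 tested EGF family ligands were called: NRG1, a ligand of ERBB3 and ERBB4, differed by 3.73 and TGFA, a ligand of EGFR, by 3.01, whereas HBEGF, another ligand of EGFR, was lower by -3.77.

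ERK feedback genes were mostly lower in SKOV3. Of 16 tested members 12 were lower in SKOV3 and 3 higher, with a median of -1.75 against 0.01 over all genes, and with median scaling 11 were lower and 3 higher. SPRY4, an inhibitor of receptor signalling, had levels of 4.68 and 4.64 in SKOV3, undetected there, and of 9.40 and 9.52 in OVCAR5 (difference -4.80 ± 0.10, adjusted p = 3.56e-06, at least 16.3-fold). DUSP6, the phosphatase that inactivates ERK, had levels of 6.68 and 6.51 in SKOV3 and of 10.34 and 10.23 in OVCAR5, a difference of -3.69 ± 0.12. ETV4, a transcription factor induced by ERK, differed by -3.71. EGR1, an immediate early gene of the same pathway, ran the other way, with levels of 12.55 and 12.50 in SKOV3 and of 7.39 and 7.66 in OVCAR5 (difference 5.0005 ± 0.13, adjusted p = 5.39e-06). The further higher genes, named after their values were seen, were IER3 at 2.20 and HRAS at 0.69. Second probes of SPRY4 and DUSP6 gave -2.08 and -2.27.

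Of 14 tested PI3 kinase pathway genes 2 were higher and 8 lower in SKOV3, and with median scaling 4 and 6. IRS1, the adaptor of the insulin receptor, differed by -2.48, TSC2 by -1.07 and RPTOR, the scaffold of mTORC1, by -0.997, while the regulatory subunit PIK3R1 was higher by 1.23. RPTOR was not called without SKOV3 replicate 1 (-0.93, adjusted p = 0.0518).

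Of 17 tested interleukin, chemokine and prostaglandin genes 6 were higher in SKOV3 and 9 lower (6 and 7 with median scaling), a share of higher genes near the 35.0% over all genes. IL1B, which lies beside IL1A on chromosome 2, had levels of 4.66 and 4.74 in SKOV3, undetected there, and of 10.02 and 10.03 in OVCAR5 (difference -5.33 ± 0.10, at least 24.2-fold). CCL2, a chemokine for monocytes, differed by -3.97. CXCL8, interleukin 8, had levels of 12.15 and 12.19 in SKOV3 and of 8.20 and 8.03 in OVCAR5 (difference 4.05 ± 0.11, adjusted p = 6.47e-06). CCL2 was detected on all 4 arrays, and IL1A on 1 SKOV3 array.

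Of 27 tested interferon-stimulated genes 9 were higher and 14 lower in SKOV3 (median -0.44), and with median scaling 10 and 11. Both arrays detected 8 of the 27 in OVCAR5 only and 1 in SKOV3 only, which largely sets their direction. MX2, an antiviral GTPase, had levels of 4.58 and 4.40 in SKOV3, undetected there, and of 9.75 and 9.76 in OVCAR5, a difference of -5.26 ± 0.11, and its relative MX1 differed by -3.24. BST2, the membrane protein tetherin, had levels of 10.31 and 10.39 in SKOV3 and of 5.07 and 5.20 in OVCAR5, undetected there, a difference of 5.22 ± 0.11, and HERC5, the ligase that attaches ISG15, differed by 3.71. Of 16 tested antigen presentation genes 2 were higher and 8 lower (2 and 5 with median scaling), with the peptide transporter subunit TAP2 at -2.43, the immunoproteasome subunit PSMB9 at -2.19, HLA-C at -2.06 and HLA-DPA1 at -0.70. HLA-DPA1 was undetected in SKOV3, with a lower bound of only 1.17-fold. HLA genes are polymorphic and alike, so a probe can miss an allele or bind another gene. The higher ones, named after their values were seen, were HLA-G at 0.62 and HLA-E at 0.60.

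Matrix genes held some of the widest differences. Of 20 tested collagen and laminin chains 11 were higher in SKOV3 and 6 lower. COL4A1, a basement membrane collagen chain, had levels of 11.54 and 11.51 in SKOV3 and of 4.56 and 4.83 in OVCAR5 (difference 6.83 ± 0.13, at least 63.6-fold). COL18A1 and COL5A1 differed by 5.99 and 5.85, and all were undetected in OVCAR5. COL6A1, a chain of the beaded filament collagen VI, ran the other way, with levels of 4.92 and 4.87 in SKOV3, undetected there, and of 10.21 and 10.57 in OVCAR5 (difference -5.49 ± 0.15, at least 31.1-fold). Of 12 tested genes of matrix metalloproteinases and plasminogen activation 7 were higher and 4 lower: the collagenase MMP1 differed by 2.49 and the activator PLAT by 1.86, against the gelatinase MMP9 at -2.44 and the urokinase receptor PLAUR at -2.13.

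Of 12 tested integrin subunits 6 were higher in SKOV3 and 3 lower. ITGB4, the hemidesmosome subunit, had levels of 8.82 and 9.06 in SKOV3 and was undetected at 4.47 and 4.44 in OVCAR5 (difference 4.48 ± 0.12), whereas ITGA6, its partner, was lower by -1.82 and ITGA2, a collagen receptor subunit, by -1.69. ITGB5 was higher by 1.65. Of 19 tested S100 and annexin genes, which encode calcium-binding proteins, 16 were higher and 1 lower (median 1.02), with S100A2 at 4.94, ANXA4 at 2.77 and ANXA6 at -2.61. Of 9 tested caveola and flotillin genes 6 were higher and 1 lower, with FLOT2 at 2.70, PACSIN3 at 1.39, CAVIN3 at 1.37 and CAV2 at 0.81; the lower one, EHD2 at -0.39, was named after its value was seen, and with median scaling 6 were higher and 0 lower. Of 5 tested SERPINB protease inhibitors SERPINB1 and SERPINB9 were higher by 1.70 and 1.48, and SERPINB7 was lower by -3.33; SERPINB9 was not called without SKOV3 replicate 2 (adjusted p = 0.0539). Of 11 mucins with a probe only MUC1 was tested, and it was higher by 3.24.

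**Figure D4:**
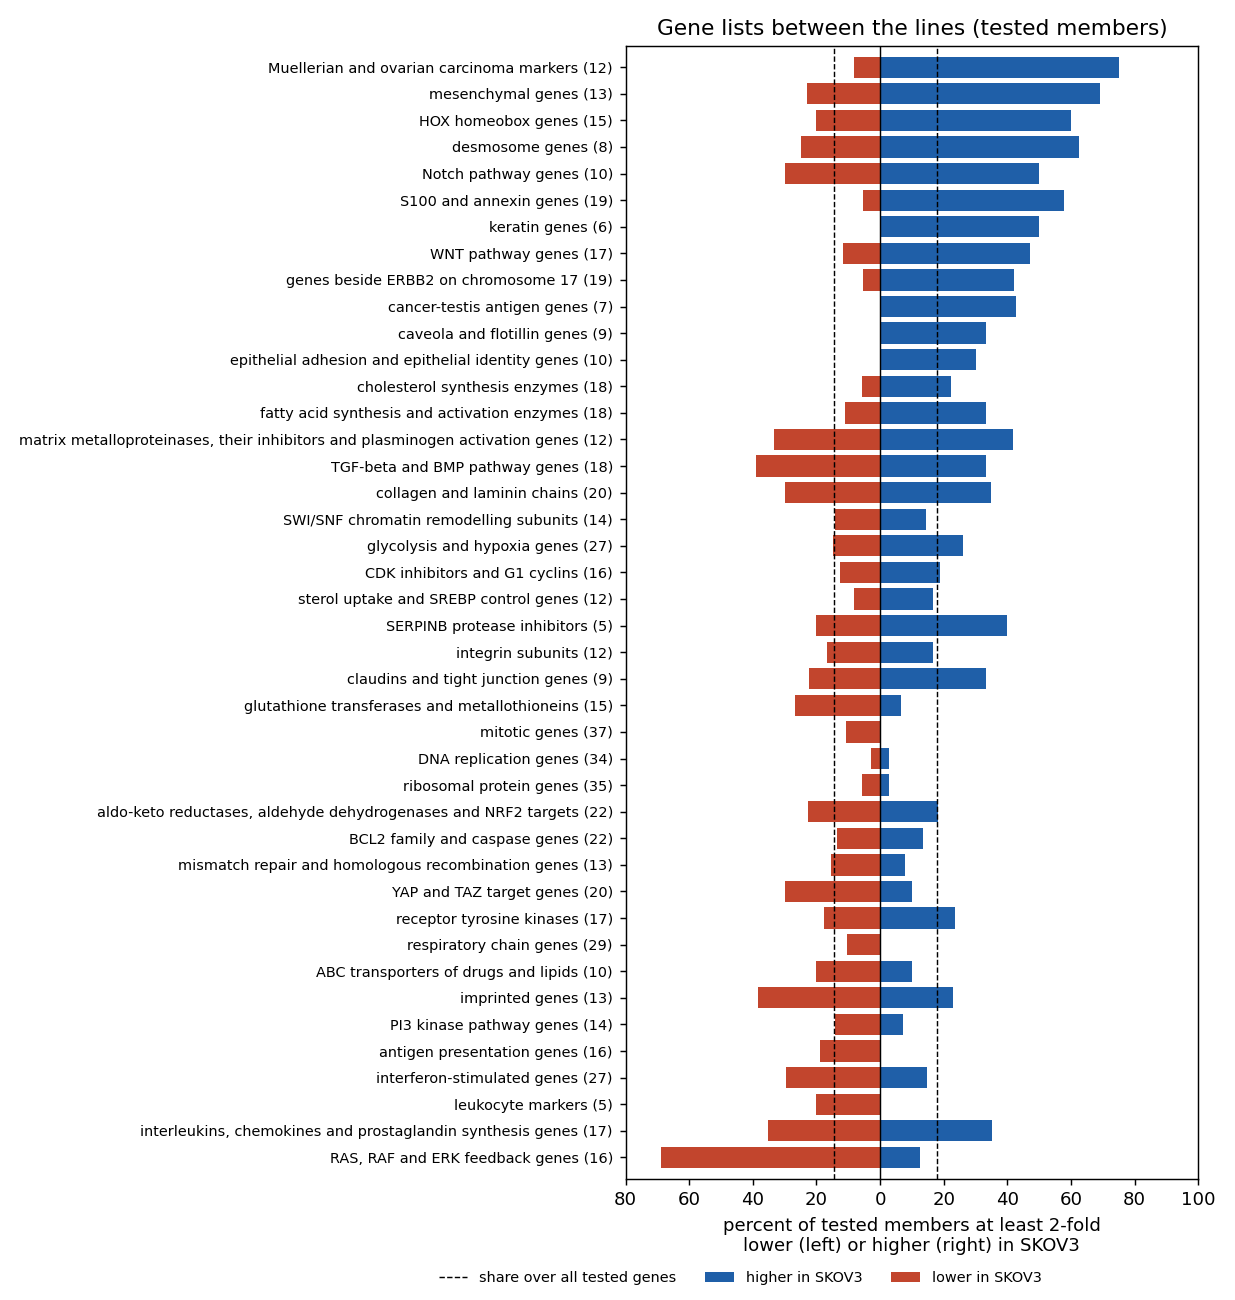
Share of the tested members of each reported list with at least 5 tested members (number in brackets) that were called and at least 2-fold higher (blue, right) or lower (red, left) in SKOV3, ordered by the list's median difference; dashed lines mark 17.9% and 14.4%, the shares over all tested genes. Muellerian markers and mesenchymal genes are at the top and the ERK feedback genes at the bottom, while mitotic, DNA replication and ribosomal genes have short bars.

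Of 27 tested glycolysis and hypoxia genes 13 were higher in SKOV3 and 6 lower (median 0.26), against 35.0% and 32.9% over all genes. Beside LDHB, BNIP3, a mitophagy receptor induced by hypoxia, had levels of 11.90 and 11.70 in SKOV3 and of 5.57 and 6.24 in OVCAR5 (difference 5.90 ± 0.23). The glucose transporter SLC2A3 had levels of 4.39 and 4.54 in SKOV3, undetected there, and of 8.61 and 8.45 in OVCAR5 (difference -4.07 ± 0.12), and PFKM, the muscle-type phosphofructokinase, differed by -3.63. Of 29 tested respiratory chain genes 2 were higher and 10 lower (median -0.20), with CYC1 of complex III at -1.30 and NDUFB5, NDUFA9 and NDUFS3 of complex I at -1.07, -1.04 and -0.81; UQCRH was not on this list. The higher ones, named after their values were seen, were ATP5F1A at 0.79 and NDUFA1 at 0.51. Of 35 tested ribosomal protein genes 4 were higher and 6 lower (2 and 8 with median scaling), with RPL14 at -2.51, RPS7 at -1.37, RPS23 at 1.51 and RPS4X at 0.50. Ribosomal protein genes have many processed copies, which these probes may also bind.

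Of 18 tested cholesterol synthesis enzymes 9 were higher in SKOV3 and 4 lower (median 0.54), against 35.0% and 32.9% over all genes, and with median scaling 11 and 4. HMGCS1, which makes the precursor of mevalonate, had levels of 10.60 and 10.46 in SKOV3 and of 9.39 and 9.28 in OVCAR5 (difference 1.19 ± 0.11, adjusted p = 0.000335). MSMO1, a sterol demethylase, differed by 2.39 and SC5D and TM7SF2, a desaturase and a reductase of the late pathway, by 2.10 and 2.23. The kept probes of MSMO1 ranged from -0.07 to 2.39. EBP, the sterol isomerase, had levels of 5.88 and 6.10 in SKOV3 and of 9.41 and 9.17 in OVCAR5, a difference of -3.30 ± 0.14, and SQLE, squalene epoxidase, differed by -0.80.

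Of 12 tested genes of sterol uptake and control 3 were higher and 2 lower, with NPC1, the lysosomal cholesterol exporter, at 1.62, INSIG1, the retention protein of the SREBP system, at 1.25, the oxysterol receptor NR1H3 at -1.08 and SREBF1 at -0.58. With median scaling these counts were 6 and 1, and SREBF1 was not called (-0.20), nor was it without SKOV3 replicate 1 (-0.42) or OVCAR5 replicate 1 (-0.47). ABCA1, the cholesterol exporter of the plasma membrane, had levels of 7.83 and 7.69 in SKOV3 and of 7.86 on each OVCAR5 array, and its difference of -0.10 ± 0.11 was not called (adjusted p = 0.463). Of 18 tested fatty acid enzymes 10 were higher and 4 lower (10 and 2 with median scaling), with ACSL1 at 2.18 and ACSS2 at 2.15, enzymes that activate fatty acids and acetate, against ACSL5 at -2.63 and the elongase ELOVL6 at -2.28.

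Of 22 tested aldo-keto reductases, aldehyde dehydrogenases and NRF2 targets 5 were higher in SKOV3 and 8 lower. AKR1C4, AKR1C3 and AKR1C2, ketosteroid reductases, differed by 3.56, 3.43 and 2.88; their sequences are close, so the gene behind each value is uncertain. ALDH1A3, which makes retinoic acid, was lower by -2.92. Of 15 tested glutathione transferases and metallothioneins 3 were higher and 4 lower (4 and 4 with median scaling), with MGST1 at -3.52, MT1F at -2.78 and GSTM5 at 2.77. Of 10 tested ABC transporters ABCA2 was higher by 1.30, and ABCB6, ABCC5 and ABCC3 were lower by -3.20, -1.35 and -0.44; with median scaling 2 were higher and 2 lower. ABCC3 was not called with median scaling (-0.22) nor without SKOV3 replicate 2 (-0.42) or OVCAR5 replicate 2 (-0.39).

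Of 37 tested mitotic genes 5 were higher in SKOV3 and 11 lower, 21 were not called, and the median was -0.02; with median scaling 6 were higher and 8 lower. KIF14, a kinesin of cytokinesis, differed by -1.77, the checkpoint kinase BUB1 by -1.47, CDCA3 by -1.13 and HMMR by -1.02. MKI67, the proliferation antigen, had levels of 6.23 and 6.56 in SKOV3 and of 6.83 and 7.18 in OVCAR5, a difference of -0.61 ± 0.18 (adjusted p = 0.0244) that was not called with median scaling (-0.23, adjusted p = 0.288) or without SKOV3 replicate 1 (-0.45) or OVCAR5 replicate 2 (-0.43), nor with no filter on dim probes (adjusted p = 0.0565). Of 34 tested DNA replication genes 8 were higher and 7 lower, and with median scaling 11 and 5. GINS4 and GINS2, subunits of the replicative helicase, were higher by 1.65 and 0.93, and POLD1, a DNA polymerase subunit, and CDC6, an origin loading factor, were lower by -1.17 and -0.995. At least 2-fold differences were rarer in both lists than the 32.3% over all genes: 4 of 37 mitotic genes were at least 2-fold lower and 0 higher, and 1 of 34 replication genes was at least 2-fold higher and 1 lower. The 32.3% includes genes detected in only one line, which neither list held. Among the 8313 genes detected on all 4 arrays, 979 were at least 2-fold higher and 1061 lower.

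Of 16 tested CDK inhibitor and G1 genes 5 were higher and 3 lower, with CCND1, cyclin D1, at -1.60, its kinase CDK6 at -1.47 and the inhibitor CDKN2D at 1.32; with median scaling 8 were higher and 3 lower. Of 13 tested DNA repair genes 4 were higher and 4 lower, with PALB2 and PMS2 at -1.37 and -1.26 and RAD51C and BRCA1 at 1.16 and 0.98. Of 14 tested SWI/SNF subunits 7 were higher and 5 lower, and beside SMARCC1, ARID1A was lower by -1.16, and SMARCB1 and ARID2 were higher by 1.36 and 1.62. ARID2 was not called without SKOV3 replicate 1 (adjusted p = 0.074). Of 22 tested BCL2 family and caspase genes 8 were higher and 6 lower, with CASP6 at 2.23, BCL2L13 at 1.17, CASP4 at -1.78 and BID at -1.30. Over all genes 35.0% were higher in SKOV3 and 32.9% lower. The DNA repair counts lie near both shares, and the higher counts of the G1 and BCL2 lists lie near the first.

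Cancer-testis and imprinted genes completed the lists. Of 28 cancer-testis genes with a probe, the SPANX genes not counted, 7 were tested, 5 were higher in SKOV3 and 0 lower. Among the 7, 4 were detected on both arrays in SKOV3 only, which largely sets their direction. Beside MAGEC2, PRAME differed by 3.80, CT45A1 by 3.51 and MAGEA6 by 0.80, all undetected in OVCAR5. MAGEA6 had a lower bound of only 1.17-fold and was not called without SKOV3 replicate 2 (0.64). Of 13 tested imprinted genes, which are expressed from 1 parental copy, 4 were higher and 7 lower. PEG10, a retrotransposon-derived gene, had levels of 4.93 and 4.92 in SKOV3, undetected there, and of 9.73 and 9.85 in OVCAR5 (difference -4.87 ± 0.10, at least 20.6-fold). PHLDA2 and MEST differed by -2.88 and -2.25, and SNRPN, a splicing protein gene of the Prader-Willi region, by 3.32.

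The lovastatin arrays gave the same comparison a second time without sharing an array with the first. Normalized alone, they called 6660 of the 10432 genes (63.8%). Of the 7079 genes called in DMSO, 5026 (71.0%) were called in the same direction, 262 (3.70%) in the opposite direction, and 1791 (25.3%) were not called. Of the 3373 genes at least 2-fold apart in DMSO, 2969 (88.0%) were called the same way, 57 the opposite way and 347 were not called. A drug effect that differs between the lines enters this comparison, so it repeats the line difference under another condition.

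Every gene among the 15 highest and 15 lowest in DMSO was called in the same direction on the lovastatin arrays. SPANXC differed by 9.49 there, UQCRH by -9.05 and ERBB2 by 4.73. Some distances were shorter: IGFBP3 went from 7.48 in DMSO to 3.35, IL1A from -7.12 to -2.32, and KIT from 4.22 to 0.53, the last not called under lovastatin (adjusted p = 0.0759). GRB7 was wider, at 4.52 against 1.96. The mitotic genes KIF14 and BUB1, at -1.77 and -1.47 in DMSO, stood at -3.86 and -3.67 under lovastatin, and ABCA1 went from -0.10 to -2.52. Whether these distances differ between treatments was not tested.

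**Figure D5:**
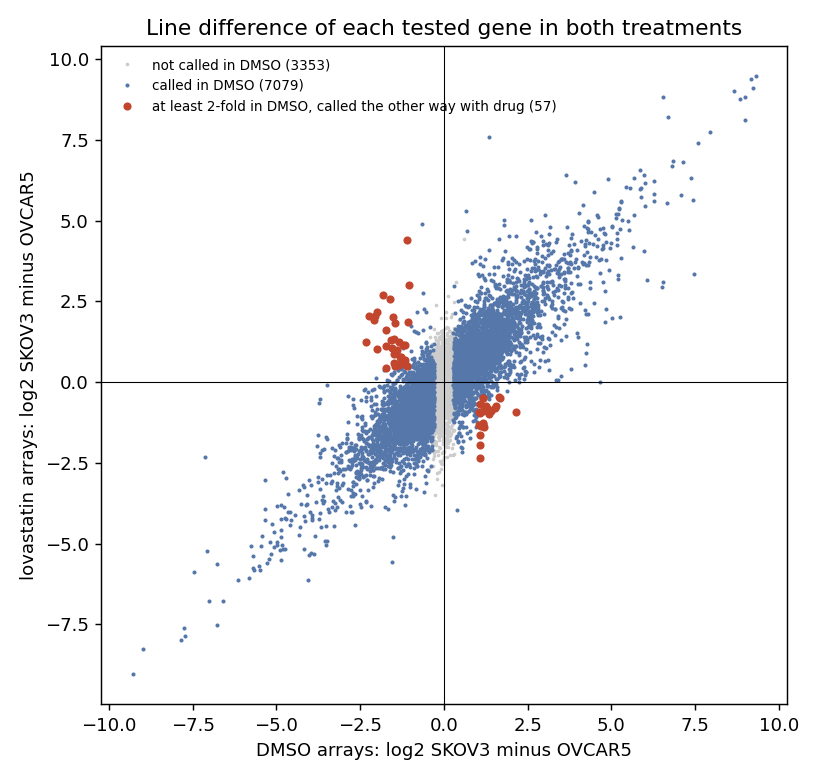
Difference between the lines (log2 SKOV3 minus OVCAR5) of each tested gene on the 4 DMSO arrays (horizontal) and on the 4 lovastatin arrays (vertical); blue points were called in DMSO (7079), grey were not, and red points are the 57 genes at least 2-fold apart in DMSO and called the other way under lovastatin. The widest differences lie along the diagonal, from UQCRH at -9.29 to SPANXC at 9.32 in DMSO.

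Genes with several kept probes show how far 1 probe speaks for a gene. There were 2672 such genes, of which 1791 were called. Of these, 176 had probes of opposite sign, and in 545 another probe lay over 1.5-fold away from the brightest. Among calls of at least 2-fold, 31 genes had a probe of opposite sign.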

How the data were processed

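RNA of SKOV3 and OVCAR5 cells was measured on Illumina beadchips of 47323 probes. Per the labels' protocols, column-purified, DNase-treated total RNA passed a Bioanalyser check and was amplified to biotinylated cRNA. The authors deposited mean bead intensity per probe, neither background-corrected nor normalized, and beside it a detection p-value. A second deposited table holds log2 values, made with limma per the submitters' processing notes; its version is not given in the sources used here. When neqc was run separately per line, it came within 0.01 log2 of this table for 99.997% (SKOV3) and 99.987% (OVCAR5) of values, so that table was taken as log2, uncentred and normalized within a line, with array medians of 4.81 and 4.74 and 1 missing value. It served as an alternative.

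The intensities of the 4 DMSO arrays were normalized together with the neqc function (limma 3.58.1, R 4.3.3; normal-exponential background from the detection p-values, quantile normalization, log2 with an offset of 16) and fitted with lmFit and eBayes. Probe genes came from the platform annotation: 30113 probes had 1 symbol, 8 several, 17202 were unnamed here, and 30074 of the first matched a current gene record. The number of arrays limits the precision, and undetected probes had a median 14.7 to 17.3 times below the 95th percentile of all probes. The members and the 49 gene lists were chosen with earlier results of these data known. Some lists and genes are not reported here. Named genes were the 15 highest and 15 lowest differences among called genes with groups that do not overlap, the 4 called members of each list with the largest absolute difference, and a short list of label and pathway genes. There were 15 alternatives. The steps were tested on simulated data. Promoter windows came from RefSeq tables read with Python 3.11.15 and Biopython 1.88, and figures from matplotlib 3.10.9.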

Additional observations from a re-analysis of the deposited data

Results flagged for a closer look

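Some genes stood apart between the lines in opposite directions in DMSO and under lovastatin, with both arrays of a line beyond both of the other each time. Whether the line difference itself changed between the treatments was not tested. Among the genes named by rule, CD68, a lysosomal protein, differed by -0.48 in DMSO and by 0.62 under lovastatin. In DMSO CD68 was not called with median scaling (-0.36), nor without SKOV3 replicate 2 (-0.37) or OVCAR5 replicate 2 (-0.43). GINS2 differed by 0.93 and -1.17, and BRCA1 by 0.98 and -1.40. BRCA1 had levels of 6.70 and 6.75 in SKOV3 and of 8.11 and 8.14 in OVCAR5 under lovastatin, against 9.28 and 8.90 in SKOV3 and 8.22 and 8.01 in OVCAR5 in DMSO.

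A further 10 genes, chosen after their values were seen, had the largest DMSO differences among those called in opposite directions. The organic anion transporter SLCO4A1 differed by -2.32 in DMSO and by 1.24 under lovastatin. Small nuclear and nucleolar RNA genes recurred: RNVU1-7 differed by -2.24 and 2.04, RNVU1-18 by -2.08 and 1.92, RNU1-3 by -2.07 and 2.05, SNORD3D by -1.99 and 2.18, and SNORD3C by -1.80 and 2.70. The U1 genes are near-identical copies, as are the SNORD3 genes, so these are not 5 separate readings. LHX1, a transcription factor on the Muellerian list, differed by 2.17 and -0.94. CHPF, a chondroitin polymerase, differed by -1.99 and 1.03, RELB, a subunit of NF-kappa B, by -1.74 and 0.44, and TRIB3, a pseudokinase induced by stress, by -1.73 and 1.13. RELB was undetected on both SKOV3 DMSO arrays, with a lower bound of 2.67-fold.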

How the results depend on the processing

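Over the alternatives, between 5586 and 7468 genes were called, against 7079. Leaving out 1 array gave 6242 to 6393, with 3209 to 3337 higher and 3028 to 3056 lower in SKOV3; the lone array was then assumed to vary like the other line's. Replicate numbers gave no sign of pairing (correlation of deviations 0.0079), and the fit with the replicate number as a block called 7031 genes and changed no call of a named gene. Without background correction, 1016 genes were at least 2-fold higher and 764 lower, against 1869 and 1504. Requiring detection on all 4 arrays left 979 at least 2-fold higher, since genes detected in only one line then drop out. EPCAM changed sign to 0.0718 in the authors' deposited table and 0.0905 with median scaling, and ABCA1 to 0.18 and 0.21, none of them called. Of 214 named genes, 208 kept both call and sign in the authors' deposited table and 206 with median scaling. In these settings 4 and 6 lost their call, and 2 genes without a call changed sign in each. The lowest detected level of an array limits each fold against a line that lacks the transcript.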
